A study of Panicum sumatrense with 28 samples.

Results

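In 150 of 101935 transcripts assembled from Panicum sumatrense, the cereal little millet, RNA was higher in the shoot than in the root at 3 days after sowing and higher in the root than in the leaf at 13 days. They were chosen by level. The lowest plumule library had to exceed the highest radicle library, and the lowest young root library the highest young leaf library, after 1 was added to each value. The plumule mean also had to reach at least 0.25 of the young root mean, again with 1 added. Of 2175 transcripts with both ratios above 1, 2104 met the last condition, and the 150 with the highest score, which is the smaller of the ratios, are the members. Both ratios reversed were above 1 for 852 transcripts. These totals depended on the processing: with a common sum for every library they were 1350 against 815, with equalised library medians of the values above 0 they were 1345 against 1096, and without young root library 1 they were 4256 against 1279.

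The atlas holds 28 libraries of 10 tissues of genotype JK-8, all from plants kept in a growth chamber. Day 2 gave germinating seed, day 3 plumule and radicle, and day 13 the leaf and the root of the seedling, called young leaf and young root. Crown meristem followed on day 26 and vegetative stem on day 48. The panicle, which bears the flowers and later the grain, was sampled on day 61 (early), day 73 (mid) and day 85 (late). Young root and vegetative stem had 2 libraries each and the other tissues 3. The labels do not say that replicates came from separate plants, so each p-value measures the spread between these libraries, which may be technical.

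The radicle is the embryonic root, which usually leaves a germinating grain first, and the plumule is the embryonic shoot, which holds the shoot tip and the first leaves. The young root of a grass seedling comes to include branches and roots formed at the stem base, while an expanded leaf is built mostly of cells that have stopped dividing and carry out photosynthesis. The crown at the stem base holds the shoot tip and the buds of tillers and roots, and the stem of a growing grass lengthens from dividing zones near its nodes.

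Values are TPM (reads per transcript length, summing to a fixed total in each library) that the authors scaled between libraries by TMM, a factor per library. The table gives assembly identifiers and no gene names, so members are named by identifier, tissue markers were not checked and no gene list was used. The lowest library sum was 660796 (a panicle early library) and the highest 3202140 (young root), and the 5 highest were those of young root and radicle. Read depth is unknown. Plumule library 1 stood apart from the others of its tissue (Spearman's rho over transcripts 0.717 and 0.678, against 0.833 between libraries 2 and 3), and the young root libraries correlated at 0.697. Counts of members that rest on plumule and young root levels are given below also without plumule library 1 and without each young root library.

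The ratios that chose the members are a description and were not tested. The ratio of plumule to radicle ran from 2.51 to 42.5 with a median of 3.77, and the ratio of young root to young leaf from 2.51 to 339 with a median of 3.72. The plumule ratio was the smaller in 75 members and the young root ratio in the other 75, so neither age decided the list alone. The score fell quickly: 5 members reached 10 and 19 reached 5. The last member, TRINITY_DN9573_c0_g1_i4 at rank 150, scored 2.5095, and TRINITY_DN7319_c0_g2_i2, next in order and just outside, scored 2.5064.

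**Figure D1:**
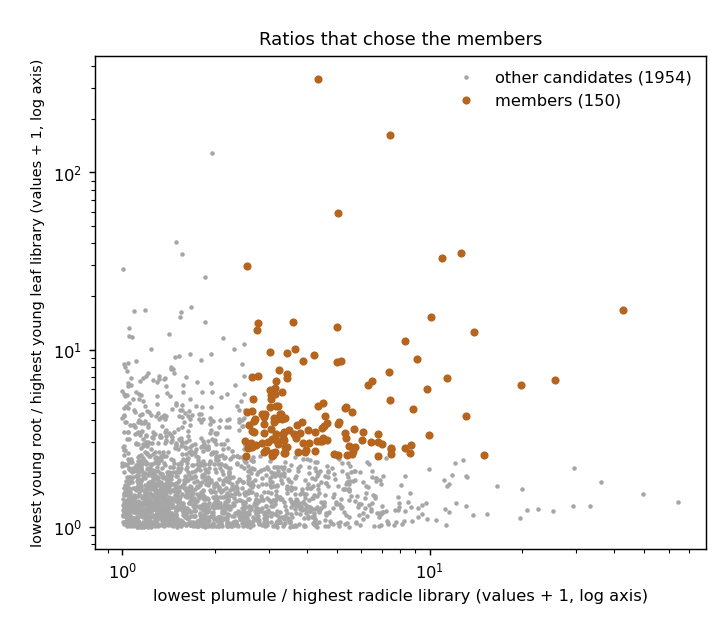
Each point is a transcript that met the rule, placed by its plumule-to-radicle ratio (x axis) and its young root-to-young leaf ratio (y axis), both lowest over highest library with 1 added to the values, on log axes. The 150 members (orange) occupy the corner where both ratios exceed about 2.51, and each of the 1954 other candidates (grey) has at least 1 ratio below that value or equal to it.

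By tissue means, the typical member was low in radicle and lower still in young leaf. The median over members of the tissue mean was 20.4 in plumule and 1.96 in radicle, and 9.47 in young root and 0.42 in young leaf. The plumule mean was above the young root mean in 121 members. All plumule libraries lay above both young root libraries in 110 members, against 25.9% of the 77548 transcripts that reached 1 in 2 or more libraries, and the reverse held in 20, against 10.6%. The condition on the plumule mean bounds this comparison, so nothing is read from it. Without plumule library 1 the counts were 125, 111 (74.0%; 31.3% of the 77548 transcripts) and 21 (14.0%; 11.2%). Without young root library 1 they were 121, 114 (76.0%; 30.3%) and 23 (15.3%; 17.5%). Without young root library 2 they were 121, 114 (76.0%; 31.3%) and 22 (14.7%; 18.6%). In bulk tissue, fewer cells that hold a transcript and less of it per cell cannot be told apart. Radicle and young leaf were the 2 lowest of all 10 tissues in 119 members and in 1096 of the 1954 other candidates. In 16 members every radicle library was listed at 0, in 19 every young leaf library, and in 4 both.

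Low radicle and young leaf values follow from the rule, whereas it did not use the other 6 tissues. There the members were widely present, though the rule also favours transcripts of higher level. The median tissue mean was 14.7 in germinating seed, 23.6 in crown meristem, 23.8 in vegetative stem, 13.3 in panicle early, 9.77 in panicle mid and 6.94 in panicle late. Means of at least 1 were found for between 139 (panicle early) and 144 (germinating seed and crown meristem) members. Of the 77548 transcripts that reached 1 in 2 or more libraries, between 42.5% (vegetative stem) and 48.9% (panicle mid) had such means. The value was at least 1 in all 17 libraries of these tissues for 119 members, and in all 28 libraries for 30. Crown meristem exceeded young root by its mean in 122 members and plumule in 91, and vegetative stem exceeded them in 117 and 86. No share over all transcripts was worked out for these comparisons of means, nor for the counts over all 17 or 28 libraries.

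**Figure D2:**
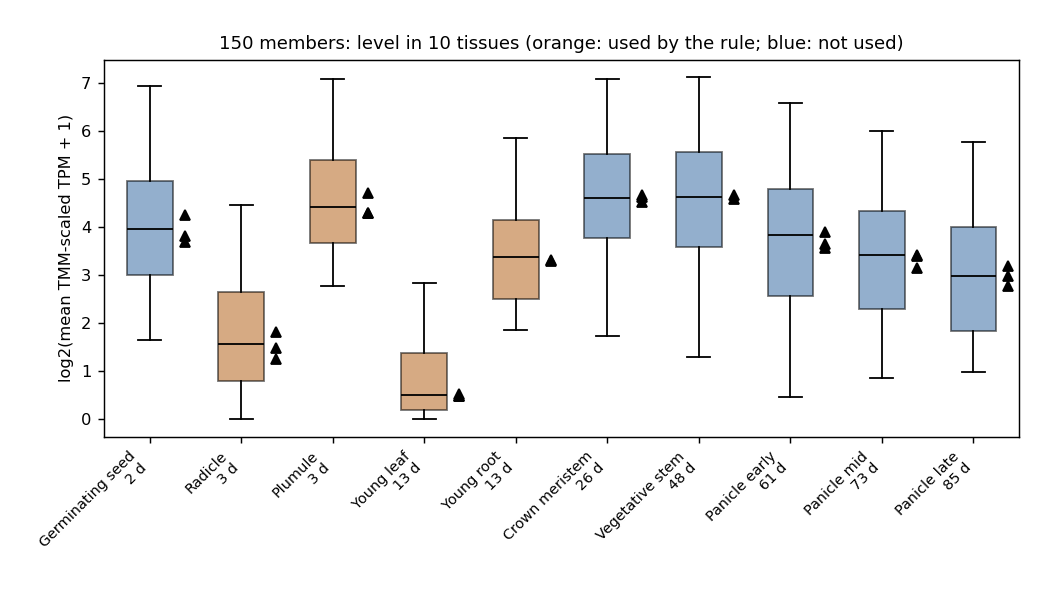
Boxes give the middle 50% of the 150 members' tissue means with the median as a line and whiskers to the 5th and 95th percentiles, on the log2(value + 1) scale, in order of sampling with the age in days (d). Triangles are the medians over members in single libraries. Crown meristem and vegetative stem, which the rule did not use (blue), reach the level of plumule, while radicle and young leaf (orange, used by the rule) lie lowest.

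Judged over all 10 tissues, the members were most often highest in crown meristem and vegetative stem. The rule bars radicle and young leaf from being highest. Brackets give the share of members, then that of the 77548 transcripts that reached 1 in 2 or more libraries. The highest mean was in crown meristem in 47 members (31.3%; 7.23%), in vegetative stem in 40 (26.7%; 6.94%), in plumule in 27 (18%; 15.2%) and in young root in 12 (8%; 10.8%). It was in germinating seed in 11 (7.33%; 10.1%), in panicle early in 10 (6.67%; 10.8%) and in panicle mid in 3 (2%; 8.78%). Leaving out plumule library 1 or either young root library moved the crown meristem, vegetative stem, plumule and young root counts to between 45 and 46, 40 and 41, 27 and 30, and 11 and 14. Plumule and young root were the highest pair in 10 members and in 65 of the 1954 other candidates. As a share of the library total, the summed members took 1.37% ± 0.0956 (SD, n = 3) in crown meristem, 1.14% ± 0.0450 (n = 2) in vegetative stem, 0.918% ± 0.132 (n = 3) in plumule and 0.753% ± 0.217 (n = 3) in germinating seed. In single libraries the plumule share was 0.899%, 1.06% and 0.797% and the young root share 0.228% and 0.165%. The share was 0.197% ± 0.0446 (n = 2) in young root, 0.0539% ± 0.00649 (n = 3) in radicle and 0.0379% ± 0.00251 (n = 3) in young leaf. The totals of the young root and radicle libraries, by which these shares were divided, were the highest of the 28, and their part in the low shares was not tested.

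The highest-scoring member was TRINITY_DN4116_c0_g1_i12, with 348, 412 and 367 in the plumule libraries against 7.22, 4.11 and 4.91 in radicle. At 13 days it had 20.0 and 19.9 in young root against 0.180, 0.0830 and 0.240 in young leaf. Its level in germinating seed was 158, 195 and 173, below every plumule library and above every radicle library. Crown meristem had 182, 158 and 181, vegetative stem 69.6 and 37.6, and panicle early 71.3, 74.8 and 64.3. No stem or panicle library reached the crown, and panicle late was lowest of them with 16.99, 15.9 and 10.5.

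TRINITY_DN13416_c1_g2_i4 had the second score. Its plumule libraries held 928, 462 and 405 and its radicle libraries 19.5, 31.2 and 22.99. Young root had 334 and 331, and young leaf 2.48, 8.51 and 1.95. Germinating seed was uneven, with 139, 562 and 1662 in libraries 1, 2 and 3, and crown meristem was even, with 966, 901 and 792. TRINITY_DN7446_c0_g1_i1, singled out after its values were seen, ran beside it in every tissue: 166, 569 and 1666 in germinating seed, 875, 405 and 416 in plumule and 298 and 363 in young root. The pair correlated at a Pearson's r of 0.990 over the log2 values of the 17 libraries the rule did not use, and their sums over all libraries stood at a ratio of 1.06.

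TRINITY_DN18319_c1_g1_i1 had the highest mean of any member in plumule, young root, germinating seed, crown meristem, panicle mid and panicle late. Its values were 1121, 1463 and 870 in plumule, 1985 and 1070 in young root, 1792, 1431 and 1625 in germinating seed and 2209, 1555 and 1997 in crown meristem. The young root libraries overlapped those of the other 3 tissues, and the seed overlapped both plumule and crown, while every crown meristem library lay above every plumule library. Radicle had 91.05, 117 and 78.5, and young leaf 5.59, 0 and 5.07. In the panicle it was lower than in any of the first 4 tissues, with 189 ± 50.5 early, 303 ± 72.6 mid and 447 ± 187 late (SD, n = 3 each). In vegetative stem the highest mean was that of TRINITY_DN11981_c0_g1_i4, with 1399 and 1221, inside the range of its crown meristem libraries (1591, 1694 and 791).

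**Figure D3:**
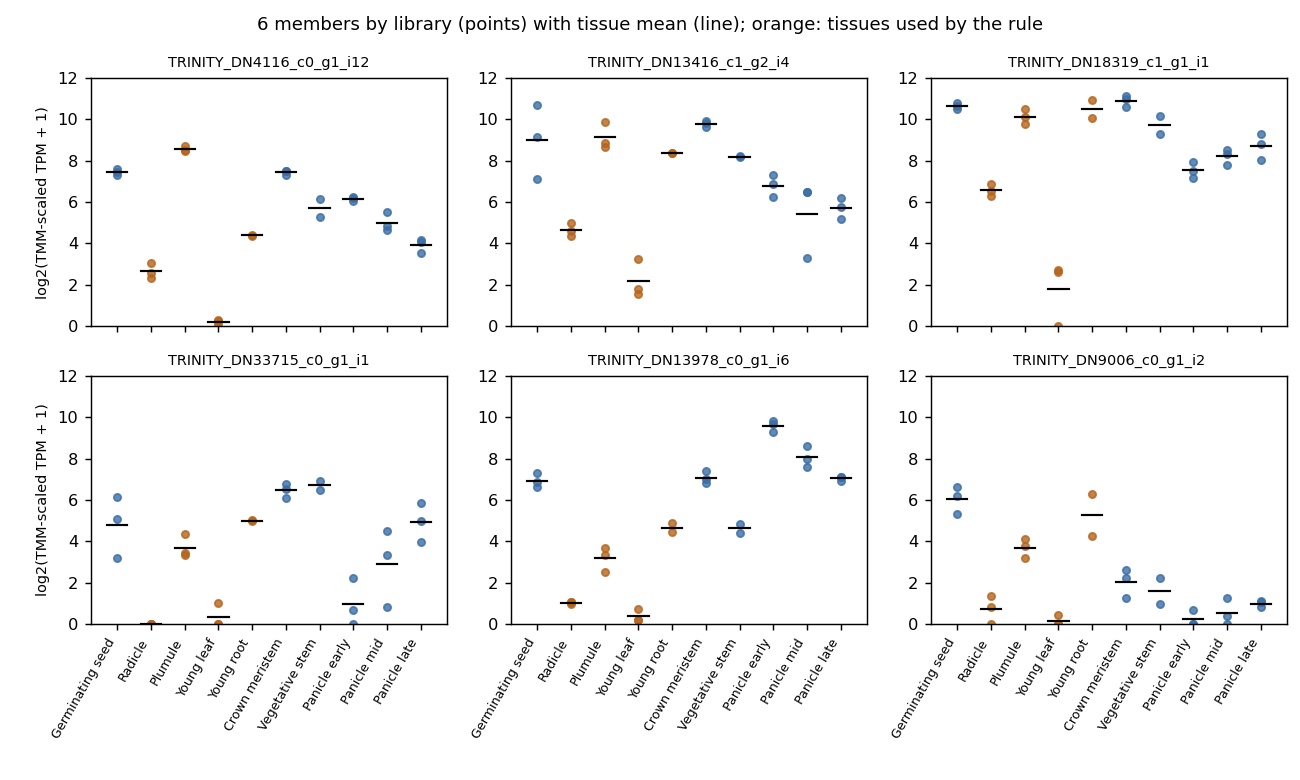
Points are single libraries and lines are tissue means of log2(value + 1), for 6 members chosen by the naming rule; orange marks the 4 tissues the rule used. In each panel radicle and young leaf are lowest among the orange tissues, while the blue tissues differ from panel to panel: TRINITY_DN13978_c0_g1_i6 peaks in panicle early and TRINITY_DN9006_c0_g1_i2 in germinating seed.

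Of the 10 members in which plumule and young root were the highest tissues, 3 are described here, chosen after their values were seen. TRINITY_DN19178_c0_g1_i6 had 38.6, 27.9 and 104 in plumule and 62.3 and 58.0 in young root. It reached 19.3 in germinating seed library 3, at most 4.72 in radicle, and at most 2.21 in any library of the other tissues. TRINITY_DN16966_c0_g2_i9 was the narrowest: it had 4.53, 2.35 and 13.7 in plumule, 1.62 and 1.67 in young root, and was listed at 0 in every other library. It was also the only member that did not reach 1 in 2 or more of the 17 libraries used for testing, so 149 of the 150 members were tested. TRINITY_DN61488_c0_g1_i1 was the most abundant of the 10, with 567, 474 and 484 in plumule and 722 and 731 in young root. It was not narrow, having 237, 206 and 207 in young leaf, the highest young leaf mean of any member.

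Whether the members differed among the 6 tissues that played no part in choosing them was tested with limma on log2(value + 1) over 59698 transcripts, with p-values adjusted by Benjamini-Hochberg over all of them. A transcript was called between 2 tissues at an adjusted p below 0.05 and a log2 difference of at least 1 in size. By limma's moderated F, 144 of the 149 members differed among the 6 tissues, against 58.3% of all transcripts tested and 87.6% of the 20347 with a mean of at least 5. Members were better expressed than most transcripts, and 133 of them reached that mean, so the share at a mean of at least 5 is given beside each share of all transcripts.

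The members were highest in the crown and the stem. Of the 149, 51 had their highest of the 6 means in crown meristem, 49 in vegetative stem, 26 in germinating seed, 15 in panicle early, 5 in panicle mid and 3 in panicle late. Crown meristem or vegetative stem was highest for 67.1% of members, 29.0% of all transcripts tested and 28.7% of those with a mean of at least 5. All 5 crown and stem libraries lay above all 12 other libraries in 34 members, against 2.71% of all transcripts (5.26% at a mean of at least 5). In no member did they lie below all others, against 2.11% (4.16% at a mean of at least 5). Panicle late was the lowest of the 6 in 72 members, and panicle early in 35, with no share over all transcripts worked out.

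From germinating seed to crown meristem, the members more often rose than fell. Of the 149, 35 were higher in crown meristem (23.5%; 9.24% of all transcripts and 14.3% at a mean of at least 5) and 6 were lower (9.41% of all and 12.1% at a mean of at least 5). The median log2 difference was 0.66 over members and 0 over all transcripts. The largest rise was that of TRINITY_DN9249_c0_g1_i1, which had 6.03, 0.983 and 0 in germinating seed and 20.6, 15.7 and 21.0 in crown meristem (log2 difference 3.05, SE 0.60, limma adjusted p = 0.0018). It reached at most 2.58 in any stem or panicle library and was listed at 0 in every radicle and young leaf library, while plumule had 12.6 ± 7.99 (n = 3) and young root 11.03 ± 4.79 (n = 2).

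The largest fall in that step was in TRINITY_DN9006_c0_g1_i2, from 98.4, 71.4 and 39.5 in germinating seed to 3.71, 1.35 and 5.03 in crown meristem. It fell by 4.03 (SE 0.45, limma adjusted p = 1.9e-05). Its young root libraries had 75.8 and 18.04, so in this member the young root reached the level of the seed in 1 library. When libraries were rescaled to a common sum, 75 members were higher and 5 lower. Among all 59698 transcripts, 9529 were then higher and 4436 lower, in place of 5516 and 5615. This scaling moved the median of all transcripts by 0.22. With only these 2 tissues in the fit, the rise of TRINITY_DN9249_c0_g1_i1 had an adjusted p of 0.057.

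Between crown meristem and vegetative stem, 13 members were called (8.72%), against 5.38% of all transcripts and 8.28% at a mean of at least 5. Of the 149 members, 7 were higher in vegetative stem (4.70%; 1.55% of all transcripts and 2.19% at a mean of at least 5) and 6 were lower (4.03%; 3.82% and 6.09%). The median log2 difference was -0.04. TRINITY_DN15909_c0_g1_i1 had the largest rise, from 0.433, 0.659 and 0.466 in crown meristem to 17.8 and 11.9 in vegetative stem (log2 difference 3.36, SE 0.58, limma adjusted p = 0.0027). TRINITY_DN9249_c0_g1_i1, described above, had the largest fall, to 0.521 and 0 in vegetative stem; it fell by 4.02 (SE 0.67, adjusted p = 0.0024). Without vegetative stem library 2, which leaves 1 library of that tissue, the median log2 difference over members was -0.001. The tissues also lie in different series of library identifiers. With that series as a covariate, which rests on radicle and young root, 8 members were called, against 1898 of all 59698 transcripts (3211 as reported).

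The largest count of falls between successive tissues was from vegetative stem to panicle early. Of the 149, 60 were lower in panicle early (40.3%; 6.36% of all transcripts and 12.0% at a mean of at least 5) and 6 were higher (9.90% of all and 15% at a mean of at least 5). The median log2 difference was -0.84 over members and 0 over all transcripts. Of the members, 118 lay below 0, and 66 were called in all. Both tissues belong to 1 identifier series. The largest fall was in TRINITY_DN33715_c0_g1_i1, which had 120 and 89.4 in vegetative stem and 3.60, 0.599 and 0 in panicle early. It fell by 5.75 (SE 0.99, limma adjusted p = 0.00080). In panicle late it had 56.2, 30.9 and 14.8, and its young root libraries had 30.5 and 31.5 with every radicle library listed at 0.

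A few members ran the other way into the panicle. TRINITY_DN13978_c0_g1_i6 had the largest rise, from 27.6 and 20.1 in vegetative stem to 618, 901 and 807 in panicle early (log2 difference 4.96, SE 0.28, limma adjusted p = 1.5e-07), and it was the most abundant member there. It was also high in crown meristem, with 168, 128 and 111, and in germinating seed, with 98.99, 154 and 115. In the tissues of the rule its values were far smaller: 4.67, 9.13 and 11.7 in plumule, 28.2 and 20.7 in young root, close to 1 in radicle and below 1 in young leaf. The count of called members in this step lay between 49 and 68 under every alternative run.

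Within the panicle, more members fell than rose at both steps. From early to mid, 34 of the 149 members fell (22.8%; 7.21% of all transcripts and 9.93% at a mean of at least 5) and 8 rose (7.92% of all and 11.3% at a mean of at least 5). TRINITY_DN2168_c1_g2_i1 had the largest fall, from 22.4, 29.9 and 28.5 in panicle early to 0.294, 0.882 and 4.79 in panicle mid; it fell by 3.52 (SE 0.45, limma adjusted p = 8.5e-05). The largest rise was that of TRINITY_DN3126_c3_g1_i1, from 0, 3.36 and 2.86 to 20.3, 14.0 and 13.6 (log2 difference 2.70, SE 0.63, adjusted p = 0.0069). With only these 2 tissues in the fit, 24 members were called in all, against 4603 of all 59698 transcripts. In that limma fit the rise had an adjusted p of 0.067.

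From mid to late, 21 members fell (14.1%; 6.88% of all transcripts and 10.4% at a mean of at least 5) and 2 rose (3.67% of all and 5.50% at a mean of at least 5). TRINITY_DN2915_c0_g1_i3 had the largest fall, from 4.11, 10.8 and 21.9 to 2.07, 2.71 and 0.488; it fell by 2.12 (SE 0.49, limma adjusted p = 0.0092). TRINITY_DN1686_c0_g1_i1 had the largest rise, from 32.8, 25.5 and 33.1 to 79.2, 68.7 and 82.7 (a log2 rise of 1.31, SE 0.15, adjusted p = 6.3e-05). This step depended on the fit. With only these 2 tissues in it, 3 members were called, against 897 of all 59698 transcripts (6300 as reported). In that limma fit the fall of TRINITY_DN2915_c0_g1_i3 had an adjusted p of 0.18. With a common sum 52 were called, all of them lower, against 10479 lower and 1404 higher among all transcripts. That scaling moved the median of all transcripts from -0.03 to -0.46, and the log2 difference of TRINITY_DN1686_c0_g1_i1 became 0.69. The count was 13 without panicle mid library 3 and 14 without panicle late library 3, against 4623 and 4913 of all transcripts.

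Means fell at each step from vegetative stem through the 3 panicle stages in 47 of the 149 members, against 6.58% of all transcripts and 10.1% at a mean of at least 5. TRINITY_DN15005_c1_g1_i1, named for the highest score among members elevated in vegetative stem (defined below), was such a member. Vegetative stem had 157 and 124, panicle early 17.3, 19.4 and 11.2, panicle mid 3.495, 4.15 and 4.22, and panicle late 1.41, 2.51 and 0.757. No library of 1 stage overlapped the next. Its plumule had 204, 159 and 176, its radicle 5.45, 10.5 and 10.2, and its young root 17.9 and 11.6, with young leaf listed at 0.

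Germinating seed, the first sampling, was also compared with panicle late, the last. Of the 149 members, 75 were lower in panicle late than in germinating seed (50.3%; 13.9% of all transcripts and 20.3% at a mean of at least 5) and 6 were higher (11.1% of all and 17.8% at a mean of at least 5). The median log2 difference was -1.05 over members and 0 over all. The largest fall was again in TRINITY_DN9006_c0_g1_i2, to 0.747, 1.18 and 1.06 in panicle late; it fell by 5.06 (SE 0.45, limma adjusted p = 1.2e-06). TRINITY_DN2393_c0_g1_i1 had the largest rise, from 0.885, 0 and 1.99 to 24.0, 17.8 and 6.61 (log2 difference 3.10, SE 0.50, adjusted p = 0.00024). Every germinating seed library is of the first identifier series and every panicle late library of the second, so the main fit cannot separate tissue from series. With the series as a covariate, which rests on radicle and young root, tissues the rule used, 55 were lower and 5 higher. Among all 59698 transcripts, 6207 were then lower and 4971 higher. With a pseudocount of 5, 43 members were lower and 1 higher, against 3812 and 3129 of all transcripts. This comparison shares libraries with the steps above.

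**Figure D4:**
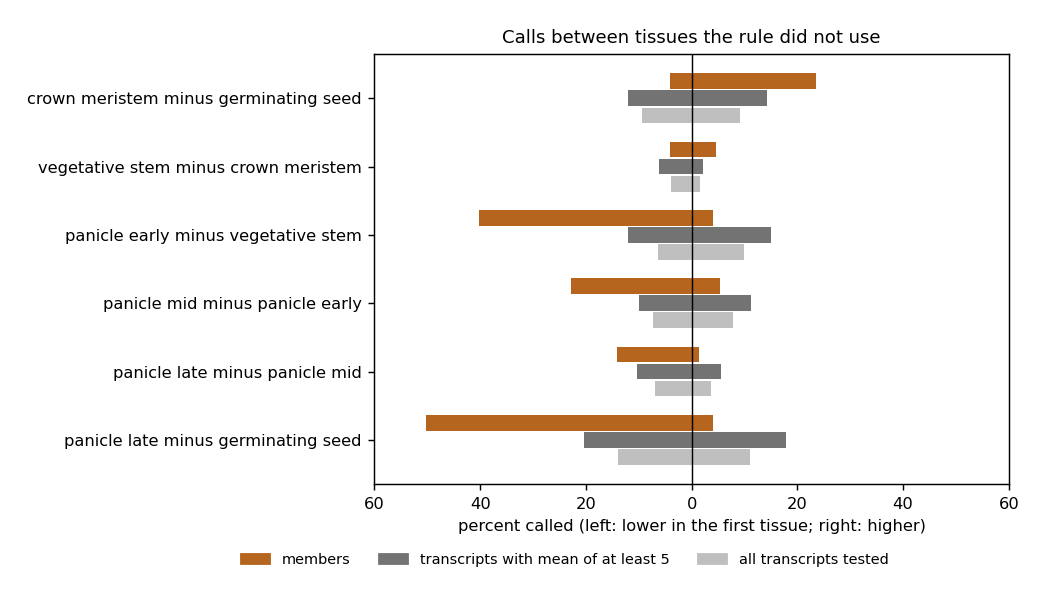
Bars give the percent called lower (left) and higher (right) in the first-named tissue of each of the 6 comparisons, for the 149 members tested (orange), for the 20347 transcripts with a mean of at least 5 (dark grey) and for all 59698 transcripts tested (light grey). The longest orange bars are the falls from vegetative stem to panicle early (40.3%) and from germinating seed to panicle late (50.3%).

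Few members marked a single tissue, and few transcripts of the whole table did. Elevated here means above each of the other 5 tissues, by the largest of 5 one-sided limma p-values after adjustment and by a log2 difference of at least 1. This held for 8 members. In germinating seed it held for 2 (1.34%; 3.27% of all transcripts and 4.03% at a mean of at least 5). In crown meristem it held for 1 (0.671%; 0.363% and 0.162%), in vegetative stem for 2 (1.34%; 0.395% and 0.251%) and in panicle early for 3 (2.01%; 1.62% and 1.45%). With counts this small, nothing is read from the differences in share. In limma's test it held for 0 in panicle mid (1.59% and 1.75%) and 0 in panicle late (1.18% and 1.68%). There 1 and 0 members had an unadjusted p below 0.05 together with a log2 difference of at least 1. TRINITY_DN9006_c0_g1_i2 stood 4.03 above crown meristem in germinating seed (adjusted p = 3.6e-05), and this call held in all 28 alternatives.

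The other tissue calls were weaker. In place of 8, the count of elevated members was 4 without crown meristem library 1 or 2, vegetative stem library 2 or panicle late library 1, and 5 without vegetative stem library 1, panicle early library 2 or panicle mid library 2. TRINITY_DN9249_c0_g1_i1 stood 3.05 above the next tissue in crown meristem (limma adjusted p = 0.029; 0.051 with the replicate block), a call that held in 14 of 27 alternatives. TRINITY_DN15005_c1_g1_i1 stood 1.35 above crown meristem in vegetative stem (adjusted p = 0.042; 0.11 with the block), which held in 9 of 28. TRINITY_DN1871_c0_g1_i3 had 56.8, 77.4 and 83.1 in panicle early against 30.6 ± 6.14 (n = 3) in crown meristem and stood 1.22 above it (adjusted p = 0.047; 0.053 with the block), which held in 8 of 28.

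The members can be sorted by the tissue in which they were highest among the 6, a grouping made from the values and given without a test. The 51 crown members had medians of 13.9 in germinating seed, 30.5 in crown meristem, 21.3 in vegetative stem and 8.90 in panicle early. The 49 stem members had 15.2, 26.3, 38.6 and 16.7 in these tissues. In plumule the crown members had a median of 20.4 and the stem members one of 21.5, and in young root 7.11 and 9.21. The 26 seed members had the highest medians of the 6 sets in plumule, 28.7, and in young root, 13.1. The 5 members highest in panicle mid stood apart in being low in germinating seed (0.488), and their radicle median was 0.

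**Figure D5:**
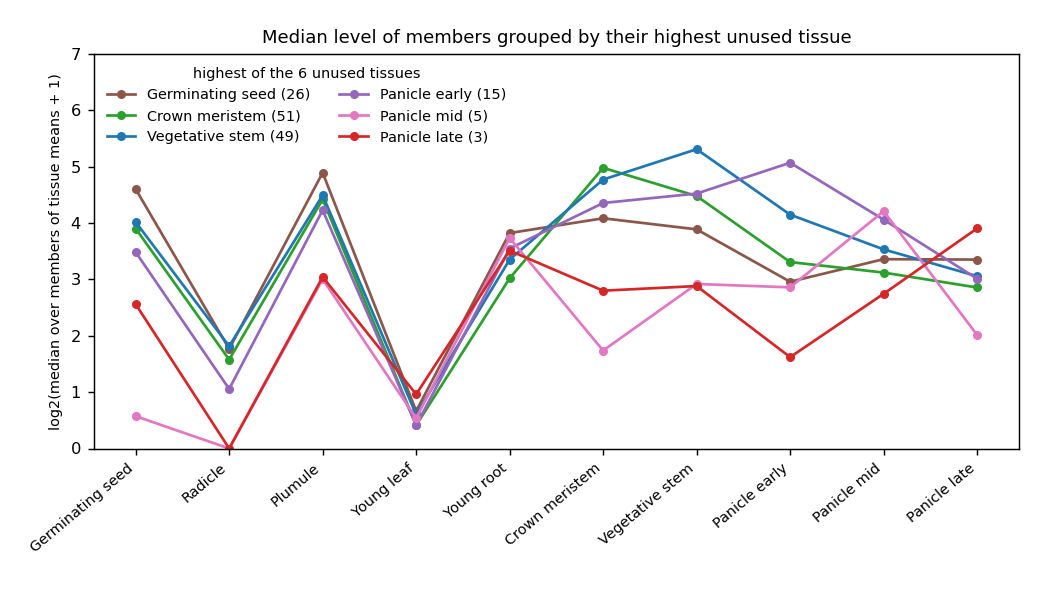
Lines join the medians, over members, of tissue means in the 10 tissues, on the log2(median + 1) scale, for members grouped by the highest of the 6 tissues the rule did not use (number of members in brackets). The dips at radicle and young leaf follow from the rule. At plumule and young root the germinating seed group lies above the crown meristem and vegetative stem groups, and at crown meristem and vegetative stem it lies below them.

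Over the 17 unused libraries, the 11026 pairs of tested members correlated at a median Pearson's r of 0.433 on log2 values, with quartiles of 0.0585 and 0.699, and 21.9% of pairs lay below 0. Tissue differences and library scaling are shared by all points, so these are descriptions. In 225 pairs r was at least 0.95. The closest was TRINITY_DN1899_c0_g1_i1 with TRINITY_DN11416_c0_g1_i4, at 0.993.

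The members came from 147 read clusters of the assembly, and 90 of them were the only transcript of their cluster in the table. Cluster DN13416 gave 3 members. Besides the second-ranked one they were TRINITY_DN13416_c1_g1_i2, with 20.2, 10.6 and 14.5 in plumule and 1.58 and 4.88 in young root, and TRINITY_DN13416_c1_g4_i1, with 29.2, 14.7 and 21.5 in plumule and 12.4 and 14.2 in young root. In both of these crown meristem was below plumule in every library, unlike in TRINITY_DN13416_c1_g2_i4. Cluster DN2168 gave a pair, TRINITY_DN2168_c1_g1_i1 and TRINITY_DN2168_c1_g2_i1, and TRINITY_DN2168_c1_g1_i1 also dropped within the panicle, from 12.0, 5.70 and 9.03 early to 0.262, 0.451 and 2.55 mid. Members of 1 cluster share sequence and may share reads, so their values are not independent.

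Of the members, 60 shared a cluster with transcripts that were not members. Of the 104 such transcripts that reached 1 in 2 or more libraries, 14 had both ratios above 1, or 13.5%, against 2.77% of the 77548 transcripts of the table that meet that minimum. Both reverse ratios were above 1 in 3 of them. These ratios use the libraries that chose the members, and transcripts of 1 cluster may share reads, so nothing is read from the difference in share.

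The list of members depended on the young root libraries more than on others. With either young root library left out, 79 (without library 1) and 95 (without library 2) of the 150 members were again among the 150 highest scores, whereas leaving out plumule library 1 kept 136 and leaving out any other single library between 115 and 146. Young root library 2 and radicle library 3 carry identifiers of the second series, and with neither, 84 were kept. Young root library 1 was above library 2 in 53 members, and the median ratio of library 1 to library 2, with 1 added, was 0.932. With all libraries rescaled to a common sum, which lowers young root most, 63 were kept among the 150 highest scores, yet in all 150 both ratios were still above 1. The members were chosen for high ratios in these libraries, so nothing is read from that. Over the whole table, the transcripts with both ratios above 1 went from 2175 to 1350 under that scaling.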

How the data were processed

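RNA of 10 tissues was sequenced in 28 TruSeq libraries. The authors used Trinity for assembly and kallisto for TPM, per the series' design text; the submitters' processing notes also name CASAVA and Trimmomatic, with no version. The deposited table is named as TMM-scaled, so its expression signal is not raw TPM: sums differ 4.85-fold between libraries. It holds no read totals, so no count model, interval or floor was used. RNA was extracted with either of a pair of methods, per the labels' protocols, which do not tie a method to a library.

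All columns matched 1 sample by title. The rule was applied to the table as deposited. Tests used the 17 libraries of the 6 tissues outside the rule and the 59698 transcripts that reached 1 in 2 or more of them. The other 11 libraries were left out because the rule asks for values there that do not overlap between the tissues compared. limma 3.58.1 in R 4.3.3 was fitted with an intensity trend and 11 residual degrees of freedom on log2(value + 1), a scale that understates changes of low transcripts. Other values came from Python 3.11.15 (scipy 1.17.1, numpy 2.4.6, pandas 2.3.3). The fit was tested on simulated data. Members and tests were chosen with earlier results of these data known. Named members were set by rule: the 2 highest scores, the highest mean in plumule, young root and each unused tissue, the largest non-overlapping rise and fall per comparison, the highest score outside the filter and among members elevated in a tissue, and the last rank inside and first outside the list. Same-numbered libraries did not deviate together (mean correlation 0.00026, 1 of 40 pairs above 0.1), so the replicate number was not a block. The closest replicates correlated at a Spearman's rho of 0.874, and none was treated as a duplicate.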

Additional observations from a re-analysis of the deposited data

How the results depend on the processing

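Every count below is of members unless it is given for all transcripts, of which 59698 were tested. Of 149 tested, between 141 and 147 differed among the 6 tissues (144 as reported) in all of the 28 alternatives but the filter at a mean of 5. That filter left 133 to test, of which 130 differed. The stem-to-early-panicle count stayed within 1.5 times of its value of 66 in all 29. For crown meristem against germinating seed, 80 were called with a common sum (41 as reported), against 13965 (11131) of all transcripts. For vegetative stem against crown meristem (13), 8 were called with the identifier series as a covariate, against 1898 (3211) of all transcripts. For panicle mid against early (42), 24 were called with only those tissues in the fit, against 4603 (9033) of all transcripts. For panicle late against mid (23), 7 were called with a pseudocount of 5, 52 with a common sum and 3 with only those tissues. Of all transcripts (6300 as reported), these settings called 2920, 11883 and 897. For panicle late against germinating seed (81), 44 were called with a pseudocount of 5, against 6941 (14926) of all transcripts. The count elevated in 1 tissue (8) was 5 with a pseudocount of 0.1, 5 of 133 with the filter at a mean of 5, 5 without the intensity trend and 3 with the series covariate. For these, no share over all transcripts was worked out. The common sum moved the median log2 difference of all transcripts by 0.22, -0.43 and -0.11 in the comparisons of crown meristem with seed, late with mid panicle and late panicle with seed. The cause of these changes was not tested.

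Leaving out each library outside vegetative stem gave 37 to 56 (crown against seed), 11 to 14 (stem against crown) and 53 to 67 (early panicle against stem). It gave 37 to 47 (mid against early), 13 to 25 (late against mid), 73 to 86 (late panicle against seed), 141 to 147 (any difference) and 4 to 8 (elevated). No share over all transcripts is set beside these ranges. Fits that left 1 vegetative stem library assume that it varies like the other tissues, and their counts are left out of these ranges. With the replicate block, the counts were 41, 14, 65, 42, 23 and 81 in the order above 144 for any difference and 6 elevated; besides the tissue calls given with the results it changed no call of a named member. Of the 16 named results, 9 kept their call in every alternative, and no direction reversed.

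The top 150 shared 84 members with the list when the added constant was 0.1, 93 when it was 5, 63 with a common sum, 67 with ratios of tissue means, and 79 to 146 when single libraries were left out. Alternatives chosen after the data were seen shared 98 (library medians of values above 0 equalised) and 84 (first identifier series only). The member counts without plumule library 1 or a young root library were also added after the data were seen. The planned division by the library median was not run, since that median is 0 in several libraries, all of radicle and young root among them. Unknown depth limits statements on low values, and a transcript listed at 0 is not shown to be absent.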
